A study of Oryza sativa with 16 samples.

Results

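A set of 426 annotated rice genes was described that had their highest seedling transcript levels in unstressed wild-type (WT) plants. The genes were chosen by their measured levels. A gene was kept when the lower of its 2 values in unstressed WT seedlings was at least 5 FPKM (fragments per kilobase of transcript scaled by sequencing depth, a level corrected for both) and at least 3 times the highest value in the 6 other seedling libraries. The 426 genes were 1.43% of the 29768 annotated gene spans that could be measured, and 4.74% of the 8996 spans with at least 5 FPKM in both unstressed WT seedling libraries. The remaining 8570 of those spans are used below as the comparison set and are called the other WT-expressed genes.

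Histone H4 is one of the core proteins around which DNA is wrapped in nucleosomes, and it is usually among the least variable of them. H4.V is a variant of H4 found in rice. A variant histone that takes the place of the common form can change how tightly DNA is packed and how readily a gene is transcribed. Salt in the growth medium causes both osmotic and ionic stress in rice seedlings, and large sets of transcripts change with it.

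All plants were of the indica rice line PB1, and there were 16 poly(A) RNA libraries, 2 per group, which the labels describe as biological duplicates. The seedling groups were h4.v KO (a Cas9-made loss-of-function line) with 120 mM NaCl in the medium, h4.v KO without salt, WT with 120 mM NaCl, and WT without salt, all 20 d old by the labels, whereas the methods of the study give a younger age. The leaf groups were mature leaves of plants that over-expressed tagged H4.V (OE-H4.V), the common H4 (OE-H4) or a chimera with the N-terminal part of H4.V and the C-terminal part of H4 (OE-H4.Vs), each from the maize Ubiquitin promoter, and of WT plants. The knockout was represented by 1 mutation type, so that the mutant cannot be told apart from the individual line that carried it. The over-expressing plants came from transformed calli, so a transgene cannot be told apart from the line or its transformation history. The 2 members of each pair are given below in the order library 1, library 2.

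The depth relative to the first unstressed WT seedling library, estimated from the lower confidence limits given with the FPKM values, was between 0.545 and 1.20. Rows shorter than 300 bp held 0.997% to 7.54% of the summed FPKM in the seedling libraries. In 5 of the 8 leaf libraries such rows held 11.5% to 20.6%, and in WT leaf they held 19.9% in library 1 and 0.80% in library 2. The span that overlaps H4.V by position, Os05g0462900 (chromosome 5, 22743760 to 22744188), was at 3369 and 3162 FPKM in OE-H4.V leaves and was listed at 0 in the other libraries, WT included, so the transcript level could not check the knockout. The files pair gene identifiers with no names or functions, and therefore the genes are given by identifier and position, on the IRGSP build used for mapping. Nothing is said of what they encode, and the seedling and leaf tissues were not checked against marker genes.

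The genes covered a wide range of expression in unstressed WT seedlings. The lower WT value was between 5.10 and 878 FPKM, with a median of 31.7 FPKM and quartiles of 13.3 and 79.4 FPKM. The 2 WT libraries lay close together, with a median absolute log2 ratio of 0.09. A total of 8 genes differed more than 2-fold between them, the widest by 1.80 on the log2 scale. The ratio of the lower WT value to the highest value of any other seedling library had a median of 5.29 and quartiles of 3.76 and 8.35. It was between 3 and 5 for 196 genes, between 5 and 10 for 142 genes and at least 10 for 78 genes. A further 10 genes were listed at 0 in all 6 other seedling libraries. With every overlapping row counted, 9 of these were still at 0, while Os01g0971100 had 37.1 and 39.8 FPKM in h4.v KO with salt, 117 and 36.8 FPKM in h4.v KO, 29.5 and 40.3 FPKM in WT with salt, and 67.03 and 80.13 FPKM in WT, and no longer met the choice. These values chose the genes, and no test was applied to them.

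The most abundant gene in unstressed WT seedlings was Os04g0556300 (chromosome 4, 27838701 to 27840702). It was at 205 and 218 FPKM in h4.v KO with salt, 188 and 216 FPKM in h4.v KO, 200 and 219 FPKM in WT with salt, and 978 and 878 FPKM in WT. Os01g0314800 (chromosome 1, 11863682 to 11864412) was at 169 and 197 FPKM in h4.v KO with salt, 130 and 134 FPKM in h4.v KO, 192 and 188 FPKM in WT with salt, and 740 and 908 FPKM in WT. For Os04g0556300 the mutant and the salt-grown seedlings lay at similar levels. For Os01g0314800 both unstressed mutant libraries lay below every salt library. In these groups both genes were still far above most genes of the set.

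A different arrangement was seen for Os04g0667600 (chromosome 4, 34081143 to 34081905), which was at 19.2 and 20.3 FPKM in h4.v KO with salt, 91.3 and 94.3 FPKM in h4.v KO, 19.7 and 21.1 FPKM in WT with salt, and 670 and 621 FPKM in WT. Os08g0205800 (chromosome 8, 6168352 to 6169288) was at 17.1 and 14.7 FPKM in h4.v KO with salt, 85.3 and 74.0 FPKM in h4.v KO, 22.1 and 18.5 FPKM in WT with salt, and 612 and 647 FPKM in WT. Both had an intermediate level in the unstressed mutant, with no overlap between its libraries and either salt group. Os01g0949300 (chromosome 1, 41818382 to 41819282) had the same order, at 26.1 and 24.7 FPKM in h4.v KO with salt, 60.5 and 63.5 FPKM in h4.v KO, 26.9 and 23.5 FPKM in WT with salt, and 593 and 733 FPKM in WT. Os04g0119500 (chromosome 4, 1148894 to 1151980) did too, at 27.4 and 31.1 FPKM in h4.v KO with salt, 56.8 and 63.1 FPKM in h4.v KO, 29.8 and 31.2 FPKM in WT with salt, and 317 and 363 FPKM in WT.

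The steepest of these profiles belonged to a pair of overlapping identifiers on chromosome 1, Os01g0186900 (4646434 to 4648130) and Os01g0186950 (4646844 to 4647917). Their values came from the same assembled rows and count as 1 observation. Os01g0186900 was at 0.24 and 0.38 FPKM in h4.v KO with salt, 104 and 123 FPKM in h4.v KO, 0.56 and 0.45 FPKM in WT with salt, and 478 and 473 FPKM in WT. It was thus near 0 in both salt groups and well expressed in both unstressed groups.

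Among the 12 most abundant genes, 3 others are given for their low levels in each of the other seedling groups. Os07g0545800 (chromosome 7, 21614976 to 21619678) was at 10.6 and 12.4 FPKM in h4.v KO with salt, 15.2 and 14.9 FPKM in h4.v KO, 11.0 and 10.8 FPKM in WT with salt, and 495 and 498 FPKM in WT. Os01g0834900 (chromosome 1, 35781678 to 35782089) was at 38.1 and 38.8 FPKM in h4.v KO with salt, 31.7 and 32.7 FPKM in h4.v KO, 20.7 and 21.6 FPKM in WT with salt, and 485 and 519 FPKM in WT. Os03g0181100 (chromosome 3, 4248884 to 4249820) was at 1.96 and 1.69 FPKM in h4.v KO with salt, 13.5 and 13.1 FPKM in h4.v KO, 2.59 and 1.85 FPKM in WT with salt, and 472 and 458 FPKM in WT. Os01g0834900 was the one of the 3 with its highest remaining level in h4.v KO with salt.

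Os08g0478700 (chromosome 8, 23613110 to 23614397) was at 66.4 and 72.2 FPKM in h4.v KO with salt, 130 and 0 FPKM in h4.v KO, 65.0 and 61.9 FPKM in WT with salt, and 493 and 469 FPKM in WT. The 0 in the second mutant library follows from the matching of rows to spans, since with every overlapping row counted the value there was 123 FPKM, against 130 FPKM in the first.

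**Figure D1:**
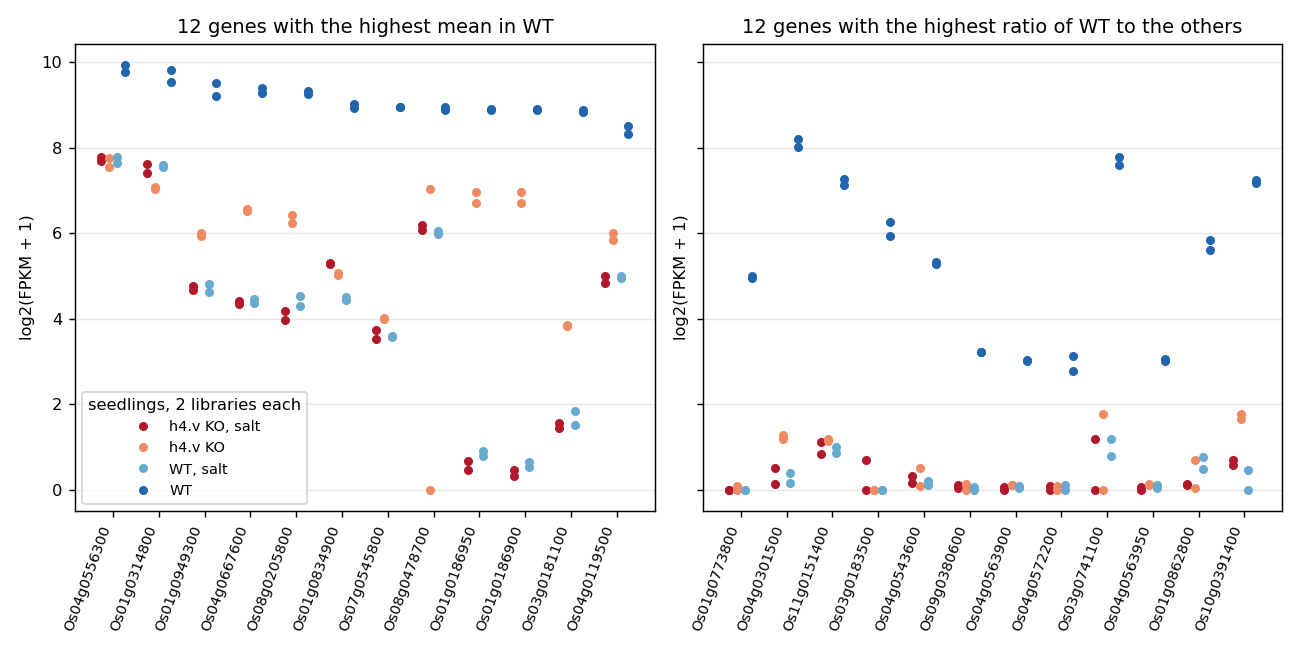
Levels in single seedling libraries, as log2(FPKM + 1), of the 12 genes with the highest mean in unstressed WT seedlings (left) and the 12 with the highest ratio of the lower WT value to the highest other value (right). Each point is 1 library, 2 per group. On the left the WT points lie above the rest by the choice of genes, and h4.v KO points of Os01g0186900 and Os01g0186950 (104 and 123 FPKM) lie far above both salt groups; on the right most other points lie near 0.

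Among the 416 genes with a value above 0 in another seedling library, for which the ratio could be formed, those with the highest ratio were mostly listed at or near 0 outside unstressed WT seedlings. Os01g0773800 (chromosome 1, 32714779 to 32716649) had 30.9 and 29.9 FPKM in WT, against 0.06 FPKM in 1 h4.v KO library and 0 in the other 5 seedling libraries. Os04g0301500 (chromosome 4, 13466455 to 13468869) was at 0.42 and 0.09 FPKM in h4.v KO with salt, 1.44 and 1.28 FPKM in h4.v KO, 0.11 and 0.32 FPKM in WT with salt, and 258 and 295 FPKM in WT. Os11g0151400 (chromosome 11, 2390496 to 2392366) was at 0.78 and 1.17 FPKM in h4.v KO with salt, 1.27 and 1.19 FPKM in h4.v KO, 1.01 and 0.81 FPKM in WT with salt, and 140 and 153 FPKM in WT. The last 2 were thus among the strongly expressed genes of the set and were nearly silent in mutant and salt-grown seedlings alike.

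Os10g0391400 (chromosome 10, 13031180 to 13032006) was at 0.49 and 0.61 FPKM in h4.v KO with salt, 2.16 and 2.41 FPKM in h4.v KO, 0 and 0.38 FPKM in WT with salt, and 152 and 144 FPKM in WT. Os03g0741100 (chromosome 3, 30406830 to 30409342) was at 0 and 1.26 FPKM in h4.v KO with salt, 0 and 2.40 FPKM in h4.v KO, 0.71 and 1.26 FPKM in WT with salt, and 192 and 219 FPKM in WT. For this gene the first h4.v KO value was 8.61 FPKM with every overlapping row counted, which is still far under the WT values. Os03g0183500 (chromosome 3, 4379668 to 4380736) had 75.5 and 60.4 FPKM in WT, against 0.61 FPKM in 1 library of h4.v KO with salt and 0 in the other 5. Os04g0543600 and Os01g0862800 had WT values of 37.6 and 38.8 FPKM and of 56.4 and 48.0 FPKM, and neither was above 0.69 FPKM in another seedling library.

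The remaining genes with a very high ratio were weakly expressed. Os09g0380600 (8.30 and 8.31 FPKM in WT), Os04g0572200 (5.85 and 7.68 FPKM in WT) and the overlapping pair Os04g0563900 and Os04g0563950 (7.21 and 7.09 FPKM in WT for the first) were at 0.10 FPKM or less in the other seedling libraries. Os09g0380600 does not meet the choice when every overlapping row is counted, because the first h4.v KO value is then 3.35 FPKM.

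The thresholds cut through a continuum. Just inside 5 FPKM were Os03g0270500, Os07g0153000 and Os01g0243000, with lower WT values of 5.10, 5.12 and 5.29 FPKM, and just outside were Os11g0236932, Os05g0132700 and Os01g0865700 with 4.83, 4.92 and 4.93 FPKM. Just inside the 3-fold limit were Os02g0777800, Os05g0591600 and Os05g0526600, with ratios of 3.0009, 3.0016 and 3.02, and just outside were Os01g0748900 with 2.99 and the overlapping pair Os02g0712512 and Os02g0712500 with 2.999 each.

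The levels in the other seedling groups, as a share of the WT level, are given as a description, since the choice used all of these values. The median gene was at 7.18% and 7.62% of its unstressed WT mean in salt-grown h4.v KO seedlings, at 13.95% and 14.1% in unstressed h4.v KO and at 8.12% and 7.92% in salt-grown WT. Over the other WT-expressed genes the same medians were 93.3% and 94.8% in the salt-grown mutant, 106.8% and 106.8% in the unstressed mutant and 98.5% and 96.7% in salt-grown WT. The number of genes listed at 0 was 52 and 42 in the salt-grown mutant libraries, 31 and 23 in the unstressed mutant and 39 and 43 in salt-grown WT. The highest of the 6 other values was in h4.v KO for 288 genes, in WT with salt for 80 genes and in h4.v KO with salt for 48 genes. For h4.v KO that is 67.6% of the set, beside 49.1% of the other WT-expressed genes. For WT with salt it is 18.8% beside 24.0%, and for h4.v KO with salt 11.3% beside 26.9%. The relative depth was 1.06 and 0.884 in the salt-grown mutant, 0.924 and 0.954 in the unstressed mutant and 0.737 and 0.848 in salt-grown WT, and its part in these counts was not tested.

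**Figure D2:**
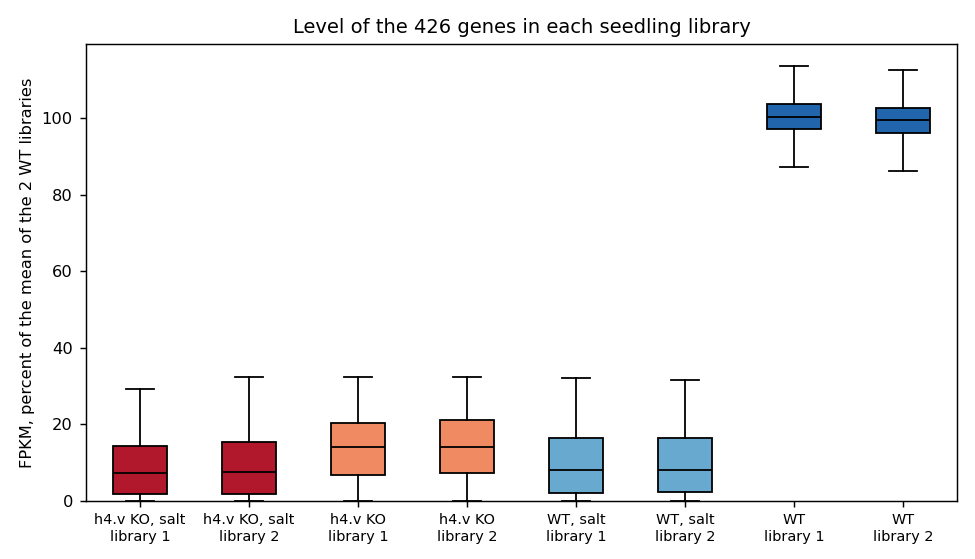
FPKM of the 426 genes in each seedling library, as a percent of the mean of the 2 unstressed WT libraries. Boxes span the quartiles with the median as a line, whiskers reach to 1.5 times the box height, and points beyond are not drawn; the medians of h4.v KO lie at 13.95% and 14.1%, above the 7.18% to 8.12% of the 4 salt libraries.

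The 3 groups other than unstressed WT were then set side by side gene by gene. The choice of genes used the values of all 6 of these libraries, so what follows is a description: no p-value is given for a gene of the set, and nothing is read from the counts. Unstressed WT was left out of these fits. limma was applied to log2(FPKM + 1) over the 15385 genes whose average across the 6 libraries reached 1 FPKM, of which 340 belonged to the set. A gene near 0 with salt could reach that average through h4.v KO alone. Os01g0699600 did so, with 0 in the salt libraries and 4.82 and 5.13 FPKM in h4.v KO. The 340 genes are thus also not a neutral part of the set. A gene was past the limits (called, in the leaf comparisons below) at a Benjamini-Hochberg adjusted p under 0.05 and a log2 fold change beyond 1.5 in either direction. Fold changes on this scale understate the change of weakly expressed genes.

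In h4.v KO seedlings grown with salt, 69 of the 340 genes were past both limits on the lower side and 3 on the higher side, relative to h4.v KO without salt. Among all 15385 genes the shares were 5.6% and 2.89%. The same libraries chose and filtered the genes, so these shares cannot be read as a difference between the set and all genes. The median log2 fold change was -0.53 over the 340 genes and -0.09 over all genes. Counting identifiers that share an assembled row once, the 69 identifiers stood for 65 loci.

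The 3 genes with the lowest fold changes in h4.v KO with salt, relative to h4.v KO without, were the pair on chromosome 1 named above and Os07g0680600. Os01g0186900 had a log2 fold change of -6.45 (SE 0.13). Os07g0680600 (chromosome 7, 28848874 to 28852236) was at 0.30 and 0.34 FPKM in h4.v KO with salt, against 19.5 and 19.7 FPKM in h4.v KO (log2 fold change -3.97, SE 0.15). Both unstressed groups thus expressed this gene, with 78.1 and 77.9 FPKM in WT, and both salt groups were below 1 FPKM. Os04g0667600 and Os08g0205800 had log2 fold changes of -2.18 (SE 0.07) and -2.25 (SE 0.14). For Os03g0181100 the log2 fold change was -2.34 (SE 0.15).

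The 3 genes on the higher side in h4.v KO with salt, relative to h4.v KO without, were weakly expressed in the mutant. Os10g0497700 (chromosome 10, 18976009 to 18979062) was at 8.99 and 7.61 FPKM in h4.v KO with salt, against 1.06 and 0.81 FPKM in h4.v KO (log2 fold change 2.26, SE 0.22). Os05g0438500 (chromosome 5, 21491943 to 21493609) was at 2.51 and 2.40 FPKM in h4.v KO with salt, against 0.07 and 0 FPKM in h4.v KO (log2 fold change 1.74, SE 0.25). Both were also found at higher levels in WT with salt than in h4.v KO. Os02g0251800 (chromosome 2, 8539273 to 8539623) was at 2.24 and 4.08 FPKM in h4.v KO with salt and had 0 in each of the unstressed mutant libraries. With every overlapping row counted it had 15.1 and 16.0 FPKM in h4.v KO, its direction turned (log2 fold change -2.03) and it no longer met the choice.

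In unstressed h4.v KO seedlings, 60 of the 340 genes were past the limits on the higher side and 4 on the lower side, relative to salt-grown WT seedlings. Among all genes the shares were 4.92% and 2.64%, which again cannot be set against the counts as a test. These 2 groups differ in both genotype and treatment, which cannot be told apart here. The median log2 fold change was 0.38 over the 340 genes and 0.03 over all. The 60 identifiers stood for 56 loci. This comparison shares its h4.v KO libraries with the previous one, so the counts are not separate observations.

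The largest differences between h4.v KO and salt-grown WT were again those of the pair on chromosome 1, with a log2 fold change of 6.25 (SE 0.13) for Os01g0186900. Os02g0759400 (chromosome 2, 31967805 to 31969537) was at 25.1 and 22.4 FPKM in h4.v KO, against 1.69 and 0 FPKM in WT with salt (log2 fold change 3.91, SE 0.50). It had 230 and 206 FPKM in unstressed WT, so that the mutant level lay between those of the WT groups. Os04g0667600 and Os08g0205800 were higher by 2.13 (SE 0.07) and 1.92 (SE 0.14) on the log2 scale. Os01g0949300 and Os04g0119500 differed by 1.27 (SE 0.09) and 0.95 (SE 0.10), under the fold limit.

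Of the 4 genes that were lower in h4.v KO than in WT with salt, Os10g0497700 was at 1.06 and 0.81 FPKM in h4.v KO, against 8.33 and 12.4 FPKM in WT with salt (log2 fold change -2.54, SE 0.22). Os05g0438500 was at 0.07 and 0 FPKM in h4.v KO, against 1.77 and 3.29 FPKM in WT with salt (log2 fold change -1.74, SE 0.25). Os01g0750600 and Os02g0251800 were the other two, both listed at 0 in h4.v KO. With every overlapping row counted Os01g0750600 had 2.90 and 3.29 FPKM in h4.v KO, against 2.46 and 2.81 FPKM in WT with salt, and it was no longer past the limits. The low mutant level of Os10g0497700 was the one example among these with clear expression in both salt groups.

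Between the 2 genotypes under salt, no gene of the set was past the limits by limma in either direction. Among all genes 0.416% were on the higher side and 0.357% on the lower side. At an unadjusted p under 0.05, the counts were 9 genes of the set higher (2.65%) and 37 lower (10.9%) in h4.v KO with salt, beside 6.04% and 10.05% of all genes. These counts are likewise only a description, since both groups took part in the choice. The median log2 fold change was -0.11 over the 340 genes and -0.05 over all. Os01g0834900, among the abundant genes above, was at 38.1 and 38.8 FPKM in h4.v KO with salt, against 20.7 and 21.6 FPKM in WT with salt. Its log2 fold change was 0.83 (SE 0.07), under the fold limit.

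**Figure D3:**
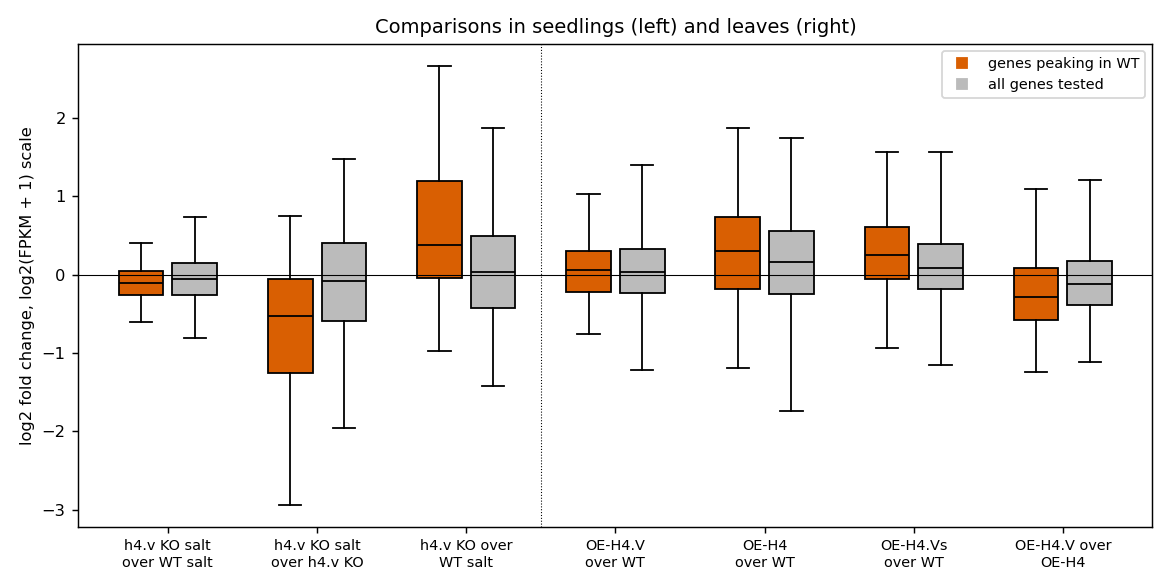
Log2 fold changes on the log2(FPKM + 1) scale in the 7 comparisons that did not use unstressed WT seedlings, for the genes of the set that were tested (340 in seedlings, 204 in leaves) and for all genes tested. The seedling libraries shown took part in the choice of genes, so the seedling boxes are only a description. Boxes span the quartiles with the median as a line, and whiskers run from the 5th to the 95th percentile; the medians of the set are -0.11, -0.53 and 0.38 in the 3 seedling comparisons, and 0.06, 0.30, 0.25 and -0.28 in the 4 leaf comparisons.

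The leaf libraries took no part in the choice. Most of the genes were weakly expressed there: the median level over the 426 genes was 0.42 to 0.92 FPKM in the 8 leaf libraries. Between 18.1% and 24.2% of the set reached 5 FPKM in a leaf library, against 70.4% to 74.4% of the other WT-expressed genes. A total of 78 genes (18.3%) were listed at 0 in all 8 leaf libraries, against 404 (4.71%) of the other WT-expressed genes. Both WT leaf libraries lay at or under the lower WT seedling value divided by 3 for 412 genes of the set (96.7%) and for 2366 (27.6%) of the other WT-expressed genes. The seedlings and leaves differed in age, organ and growth conditions, which cannot be told apart. A set chosen for high values in 2 seedling libraries is also apt to be lower elsewhere, and no test was made of these shares. The leaf values also depended on how rows were matched to spans. Os02g0251800 was listed at 0 in both WT leaf libraries as matched, and had 40.5 and 17.3 FPKM with every overlapping row counted. The shares above use the matched values, and how far they would shift was not tested.

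**Figure D4:**
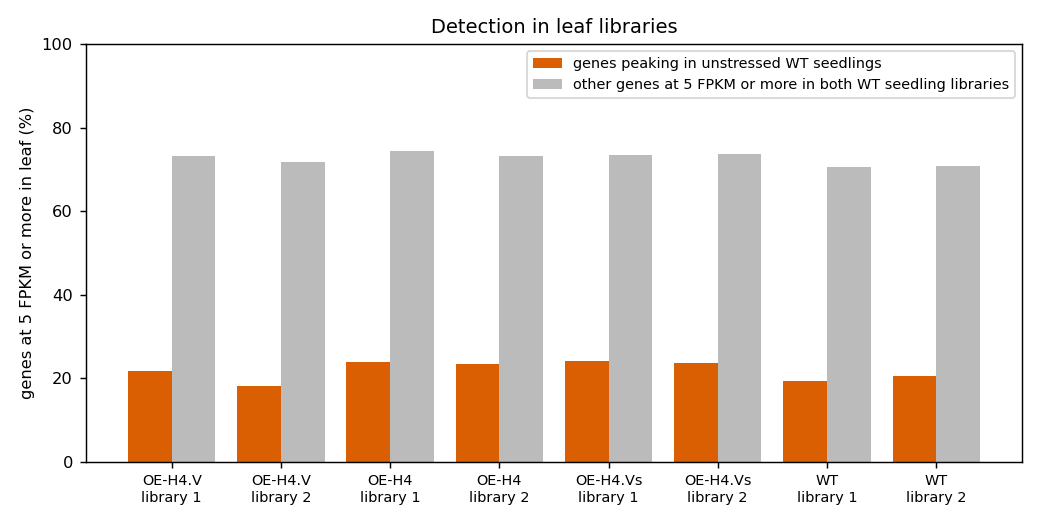
Share of genes with at least 5 FPKM in each leaf library, for the 426 genes that peaked in unstressed WT seedlings and for the 8570 other genes with at least 5 FPKM in both of those seedling libraries. Bars for the set lie between 18.1% and 24.2%, and bars for the other genes between 70.4% and 74.4%.

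A small number of genes reached a comparable level in at least 1 leaf library. As rows were matched to spans, both WT leaf libraries reached the highest of the 6 other seedling values for 20 genes, and for none did both reach the lower unstressed WT seedling value. Any leaf library reached that value for 6 genes, named here after their values were seen: Os01g0837600, Os02g0251800, Os05g0447700, Os06g0479200, Os08g0410900 and Os12g0117700. Of these, Os02g0251800, Os08g0410900 and Os12g0117700 were listed at 0 in both WT leaf libraries. These results depended on the matching. Os11g0229400 had 0.55 and 0.89 FPKM in WT leaf as matched. With every overlapping row counted it had 18.2 and 20.2 FPKM there, above its 12.5 and 10.8 FPKM in unstressed WT seedlings. Os01g0837600 (chromosome 1, 35912084 to 35913241) was at 18.5 and 15.7 FPKM in OE-H4.V, 26.1 and 27.3 FPKM in OE-H4, 24.4 and 19.2 FPKM in OE-H4.Vs and 15.5 and 14.1 FPKM in WT leaf, beside 22.6 and 18.8 FPKM in unstressed WT seedlings. It was thus at 14.1 FPKM or more in every leaf library. Os06g0479200 was at 32.3 and 33.3 FPKM in OE-H4.V, 25.9 and 29.3 FPKM in OE-H4, and 29.0 and 33.4 FPKM in OE-H4.Vs. It had 0 and 29.9 FPKM in WT leaf, beside 13.4 and 11.5 FPKM in unstressed WT seedlings. Every leaf value of Os06g0479200 except the 0 in WT leaf library 1 was thus above both of those seedling values. Os12g0117700, a span of 423 bp, was at 604 FPKM in 1 OE-H4.V library and 563 FPKM in 1 OE-H4.Vs library and was listed at 0 in the other 6. Among the most abundant genes of the set, Os04g0119500 stayed high in leaf, with 81.7 and 75.2 FPKM in OE-H4.V, 81.3 and 86.5 FPKM in OE-H4, 80.7 and 78.0 FPKM in OE-H4.Vs, and 87.6 and 95.2 FPKM in WT.

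In leaves, limma was applied in the same way to the 12159 genes whose average across the 8 libraries reached 1 FPKM, 204 of them of the set. The p-values set each group difference against the spread between duplicates, with 2 libraries per group. That spread was pooled over all leaf groups and moderated across genes. Few genes of the set were called. OE-H4.V leaves had 3 higher and 2 lower genes than WT leaves, against 1.92% and 1.23% of all genes tested. OE-H4 leaves had 9 higher and 8 lower, against 3.71% and 2.94%. OE-H4.Vs leaves had 5 higher and 2 lower, against 2.21% and 1.2%. The 3 comparisons share the WT leaf libraries. The shares of the set called were 1.47% (higher) and 0.98% (lower) for OE-H4.V, 4.41% and 3.92% for OE-H4 and 2.45% and 0.98% for OE-H4.Vs, which are near those of all genes. The median log2 fold change against WT over the 204 genes was 0.06 for OE-H4.V, where that of all genes was 0.04. It was 0.30 beside 0.17 for OE-H4, and 0.25 beside 0.09 for OE-H4.Vs. Between OE-H4.V and OE-H4 leaves no gene of the set was called by limma, against 0.378% higher and 0.173% lower among all genes. At an unadjusted p under 0.05, OE-H4.V was above OE-H4 for 16 of the 204 genes (7.84%) and below it for 44 (21.6%), beside 6.71% and 12.3% of all genes tested. The median log2 fold change was -0.28 over the 204 genes and -0.12 over all.

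Of the genes that were higher in over-expression leaves, Os07g0569100 (chromosome 7, 22889318 to 22890939) was expressed in every library. Its levels were 26.7 and 39.2 FPKM in OE-H4.V, 28.7 and 20.1 FPKM in OE-H4, 39.9 and 39.4 FPKM in OE-H4.Vs, and 8.36 and 7.89 FPKM in WT. The log2 fold change against WT was 1.87 (SE 0.24, adjusted p = 0.011, limma) in OE-H4.V and 2.16 (SE 0.24, adjusted p = 0.0064, limma) in OE-H4.Vs. Neither WT leaf library could be left out without the loss of these calls. Os07g0569100 was not called in OE-H4, although both OE-H4 libraries were above both WT libraries. With every overlapping row counted its value in OE-H4 library 2 was 28.6 FPKM. In seedlings the same gene was at 21.7 and 31.2 FPKM in h4.v KO with salt, 52.6 and 49.1 FPKM in h4.v KO, 22.9 and 21.7 FPKM in WT with salt, and 313 and 236 FPKM in WT.

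Os09g0369400 (chromosome 9, 12251875 to 12254061) was called higher in all 3 over-expression groups (limma, adjusted p = 0.0015 in OE-H4.V, 0.0030 in OE-H4, 0.0024 in OE-H4.Vs). Its levels were 14.3 and 31.7 FPKM in OE-H4.V, 10.9 and 10.5 FPKM in OE-H4, and 14.2 and 15.4 FPKM in OE-H4.Vs, and it was listed at 0 in both WT leaf libraries, so no fold is given. In seedlings it was at 2.88 and 3.29 FPKM in h4.v KO with salt, 15.9 and 21.4 FPKM in h4.v KO, 3.03 and 3.20 FPKM in WT with salt, and 302 and 289 FPKM in WT. It was therefore a gene with a large seedling peak and a leaf level that was detected in each over-expression group.

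A further 4 of the named genes were called higher in leaf with both WT libraries listed at 0. Os08g0410900 was at 10.7 and 6.72 FPKM in OE-H4.V, and the overlapping pair Os01g0158500 and Os01g0158533 at 4.39 and 5.96 FPKM (for the first) in OE-H4. Os01g0584900 was at 4.68 and 2.18 FPKM in OE-H4.Vs. These levels were low. The calls for the pair in OE-H4 and for Os01g0584900 in OE-H4.Vs were lost without WT leaf library 1. The call for Os08g0410900 in OE-H4.V was lost when every overlapping row was counted.

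Of the named genes that were lower in over-expression leaves, Os01g0106400 differed most between its WT leaf libraries. Os01g0106400 (chromosome 1, 327128 to 328450) was at 1.15 and 1.47 FPKM in OE-H4.V, 1.02 and 1.09 FPKM in OE-H4, 5.90 and 5.51 FPKM in OE-H4.Vs, and 35.1 and 9.07 FPKM in WT, with log2 fold changes of -3.05 (SE 0.56, adjusted p = 0.042, limma) in OE-H4.V and -3.21 (SE 0.56, adjusted p = 0.019, limma) in OE-H4. Os02g0646200 (chromosome 2, 26027785 to 26029488) was at 3.93 and 4.21 FPKM in OE-H4.V, 0.96 and 1.77 FPKM in OE-H4, 1.62 and 4.69 FPKM in OE-H4.Vs, and 18.9 and 14.3 FPKM in WT. Every over-expression library was below both WT libraries for these 2 genes. The calls for Os01g0106400 were lost without either library of the over-expression group compared. Os02g0646200 was called lower in OE-H4 (log2 fold change -2.90, SE 0.40, adjusted p = 0.0091, limma) and in OE-H4.Vs (log2 fold change -2.18, SE 0.40, adjusted p = 0.039, limma), and both calls were lost without WT leaf library 1.

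Os02g0661100 (chromosome 2, 26767607 to 26771623) was at 1.40 and 1.98 FPKM in OE-H4.V, 0 and 0.40 FPKM in OE-H4, 0.94 and 1.02 FPKM in OE-H4.Vs, and 4.58 and 5.85 FPKM in WT leaf. Its log2 fold change was -2.38 (SE 0.26, adjusted p = 0.0044, limma) in OE-H4 and -1.65 (SE 0.26, adjusted p = 0.026, limma) in OE-H4.Vs. This gene was at 307 and 361 FPKM in unstressed WT seedlings. Os06g0164400 was at 1.67 and 0.50 FPKM in OE-H4.V, 1.15 and 0.74 FPKM in OE-H4, 1.18 and 1.78 FPKM in OE-H4.Vs, and 9.27 and 5.65 FPKM in WT leaf. It was called lower in OE-H4.V (log2 fold change -2.05, SE 0.37, adjusted p = 0.040, limma). The call was also made in OE-H4 (log2 fold change -2.09, SE 0.37, adjusted p = 0.020, limma). The calls for Os06g0164400 in OE-H4.V and for Os02g0661100 in OE-H4.Vs were each lost without WT leaf library 1 and without WT leaf library 2.

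By position, the genes were spread over all 12 chromosomes but unevenly. Chromosome 1 held 83 of them (2.02% of its spans), chromosome 11 held 8 (0.406%) and chromosome 12 held 8 (0.463%). Among spans with at least 5 FPKM in both unstressed WT libraries, the share that belonged to the set was highest on chromosomes 9 (6.30%) and 1 (6.16%) and lowest on chromosomes 12 (1.95%) and 11 (2.25%). The median span was 2139 bp long in the set, against 3426.5 bp for the other WT-expressed genes. No test was made of these shares and lengths.

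Some genes of the set lay side by side. A total of 98 genes (23.0%) were next to another gene of the set, against 277 (3.23%) of the other WT-expressed genes. Much of this came from overlapping spans: of 53 neighbouring pairs, 33 overlapped, and 33 pairs shared an assembled row in unstressed WT, so that the 426 identifiers stood for 393 separate loci. A total of 37 genes were next to another gene of the set without overlapping it. The matching share of the other WT-expressed genes was not worked out, so this count has no background. The 6 runs of 3 or more neighbours were examined after their values were seen.

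The longest run held 5 identifiers on chromosome 1, between 28921498 and 28948045, of which Os01g0699450 and Os01g0699500 overlap. Os01g0699100 was at 0.69 and 0.61 FPKM in h4.v KO with salt, 3.01 and 2.95 FPKM in h4.v KO, 0.63 and 0.51 FPKM in WT with salt, and 25.1 and 25.4 FPKM in WT. Os01g0699600 was listed at 0 in all 4 salt libraries and was at 4.82 and 5.13 FPKM in h4.v KO and 41.1 and 44.4 FPKM in WT. Os01g0699400 and Os01g0699450 had 0.84 and 1.45 FPKM and 3.54 and 3.25 FPKM in h4.v KO, and 12.5 and 11.7 FPKM and 51.3 and 68.2 FPKM in WT, with no salt library above 0.57 FPKM. Every locus of the run thus had the same order, with unstressed WT highest, unstressed h4.v KO intermediate and the salt groups near 0, and none of the 5 was above 0.52 FPKM in a leaf library.

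On chromosome 3 the run held Os03g0180800 (4232004 to 4233038), Os03g0180900 (4236724 to 4238058) and Os03g0181100, which do not overlap. Os03g0180800 was at 0 and 0 FPKM in h4.v KO with salt, 2.07 and 1.60 FPKM in h4.v KO, 0.55 and 0.38 FPKM in WT with salt, and 105 and 101 FPKM in WT. Os03g0180900 was at 3.84 and 4.17 FPKM in h4.v KO with salt, 3.88 and 3.22 FPKM in h4.v KO, 6.48 and 5.14 FPKM in WT with salt, and 58.6 and 57.1 FPKM in WT. The middle gene of this run therefore lacked the higher level in unstressed h4.v KO that its neighbours had.

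On chromosome 8 the run held Os08g0137800, Os08g0137900 and Os08g0138100 (2129613 to 2138081), with 28.0 and 26.5, 22.3 and 22.4, and 15.4 and 12.1 FPKM in WT. None of the 3 was above 5.00 FPKM in another seedling library or above 1.46 FPKM in a leaf library. The runs on chromosomes 2, 5 and 6 each included an overlapping pair. The genes on chromosome 2, Os02g0756800, Os02g0756850 and Os02g0757100, were the most abundant of the 6 runs after Os03g0181100, with 168 and 160, 191 and 182, and 115 and 109 FPKM in WT. On chromosome 5 Os05g0540900 was at 32.4 and 31.2 FPKM in WT, and on chromosome 6 Os06g0220000 was at 62.8 and 62.0 FPKM. These 2 were near the limit of the choice, with ratios of 3.05 and 3.23.

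The choice itself depended on how the assembled rows were matched to spans. For 118 genes a row that covered at least 50% of each of 2 or more spans touched the gene in a seedling library. With every overlapping row counted, 14 of the 426 genes no longer met the choice, among them Os02g0626532 and Os02g0626600, which overlap and whose second h4.v KO value was 0.95 FPKM as matched and 1440 FPKM with every row. A replicate at 0 beside one of at least 5 FPKM was found for 2 genes in h4.v KO, 1 gene in h4.v KO with salt and none in WT with salt.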

How the data were processed

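Poly(A) RNA of 16 rice libraries had been sequenced as directional paired-end reads. Per the labels and the study's methods, the authors used Trimmomatic for trimming, HISAT2 for mapping to the IRGSP rice genome and Cufflinks 2.2.1, library by library, for quantification. The deposited values are FPKM, listed both for annotated genes and for newly assembled loci. They are normalised to length and depth, and no counts were used here. Because a gene can appear as an assembled locus, the FPKM of a span was summed over rows with at least 50% of their length in it, each weighted by the share overlapped (BEDTools 2.31.1). Spans needed an identifier in at least 1 library. Depth is known only in relative terms, so no counting interval is given.

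Groups followed the labels. limma 3.58.1 (R 4.3.3, empirical Bayes with a trend) was fitted to log2(FPKM + 1) with a pseudocount of 1 FPKM and a mean of at least 1 FPKM, separately over the 8 leaf and the 6 seedling libraries other than unstressed WT, and p-values were adjusted by Benjamini-Hochberg over every gene in the fit. Because the choice of genes used all seedling libraries, the planned seedling tests are given as a description, without p-values for single genes. The scripts were tested on simulated data. No column of another series was used.

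The members and lists were chosen with earlier results of these data known. Genes were named as the 12 with the highest unstressed WT mean, the 12 with the highest ratio, up to 3 with the largest rise and fall among those called in each comparison, and 3 on each side of each threshold. Gene families, promoters, proteins and tissue markers were not analysed here, because the identifiers matched no entry with a name in the reference table (0 of 426). Alternatives were other thresholds, pseudocounts, filters, scalings, row matching, a replicate block and leaving out each library.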

Additional observations from a re-analysis of the deposited data

How the results depend on the processing

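The set held 756 genes at a limit of 2 times and 230 at 5 times. It held 486 with median-of-ratios scaling, which shared all 426, and between 433 and 539 with 1 seedling library left out. Rows with 80% in the span gave 318 genes (308 shared), and every overlapping row, an alternative chosen after seeing the data, gave 523 (412 shared). In the seedlings, 72 genes were past the limits between h4.v KO with and without salt. They were 112 at a log2 fold limit of 1 and 39 at a mean of at least 5 FPKM. The 64 genes past the limits between h4.v KO and WT with salt were 101 and 34 under the same 2 settings. None was between the genotypes under salt, and 1 was at a fold limit of 1 or a pseudocount of 0.1 FPKM, with 0 to 1 when a library was left out.

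The leaf calls were less stable. The 5 for OE-H4.V were 3 with no filter and 2 at a mean of at least 5 FPKM. They were 3 without spans touched by a row over 2 or more spans, and 3 to 5 with a library left out. The 17 for OE-H4 were 30 at a fold limit of 1, 5 at a mean of at least 5 FPKM, and 7 to 15 with a library left out (7 without WT leaf library 1, 11 without WT leaf library 2 and 8 without OE-H4 library 1). The 7 for OE-H4.Vs were 14 at an unadjusted p, 2 at a mean of at least 5 FPKM, and 2 to 14 with a library left out (2 without WT leaf library 1, 4 without WT leaf library 2, 3 without OE-H4.Vs library 1 and 14 without OE-H4.Vs library 2). Between OE-H4.V and OE-H4 there were 11 calls at an unadjusted p and 1 with no filter. The cause of these shifts was not tested.

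Samples with the same replicate number did not deviate together (correlations between -0.03 and 0.09), so the numbers were not taken as pairs. With a replicate block the calls were 3 for OE-H4.V and 3 for OE-H4.Vs, and the other counts stayed within 1.5 times. Of 288 values for the named genes under the alternatives, 242 kept their direction and side of the threshold, 43 lost the call and 3 turned, all with every overlapping row counted. Os02g0251800 then had log2 fold changes of -2.03 in h4.v KO with salt against h4.v KO and 2.19 in h4.v KO against WT with salt, and Os01g0750600 had 0.17 in h4.v KO against WT with salt.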
